A study of Mus musculus with 12 samples.

Results

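The stefin A cluster genes *Stfa1*, *Stfa2*, *Stfa2l1* and *Stfa3* were taken from the deposited expression table by their symbols, and all 4 were found among its 55401 rows. The family was selected on measured expression values of these tumors (which comparison was used is not recorded), so its values and their differences with errors are given as a description, no p-value is given for them, and nothing is read from whether a member passed a threshold. The tumors were orthotopic grafts of 4T1, a mouse mammary carcinoma line, in Balb/c mice aged 6 to 8 weeks, and whole tumors were sequenced in bulk. All mice carried the same tumor line and received a protein from a tumor volume of 100 mm3 on: a control isotype (IgG1-Fc, called control IgG), recombinant IL10-Fc protein (called IL-10-Fc), a CSF1R antibody (called aCSF1R), which blocks the receptor for colony stimulating factor 1, or the fusion protein BF10, in which such an antibody carries human interleukin-10 at its C-terminus. Each group had 3 tumors with 1 library each, 12 in all, named here by the replicate numbers of their titles. The labels give 6 doses at 2 a week and the series description gives 4, so the number of doses is uncertain.

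Stefins are small cystatins without a signal peptide that stay inside the cell and bind tightly to papain-type cysteine proteases, the lysosomal cathepsins among them. The mouse carries a tandem array of stefin A genes where other mammals have few or a single copy. Myeloid cells, above all neutrophils and their precursors, and stratified epithelium are known to make them. Colony stimulating factor 1 receptor is the growth factor receptor on which macrophages depend.

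In the GENCODE M21 annotation (GRCm38) the array spanned 335.4 kb of chromosome 16, from 36119946 to 36455392, and held 11 genes, 10 of them protein coding, with 6 on the plus and 5 on the minus strand. *Stfa2l1* (chr16:36156811-36161953, plus strand) lay near one end, *Stfa1* (chr16:36276951-36285373, plus strand) in the middle, and *Stfa2* (chr16:36403992-36408457, minus strand) next to *Stfa3* (chr16:36450537-36455392, minus strand) at the other end. Each coding transcript of the 4 genes had 3 exons. *Stfa2*, *Stfa2l1* and *Stfa3* shared a reading frame for 103 residues, and *Stfa1* had frames for 97 and 128 residues in its 2 transcripts. The first 75 coding bases, the length of a read in the study's methods, are shown to make visible how alike these genes are. In the set below capitals mark bases that differ from *Stfa2l1*.
Stfa2l1: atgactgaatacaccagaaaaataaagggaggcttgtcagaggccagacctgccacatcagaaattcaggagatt
Stfa2: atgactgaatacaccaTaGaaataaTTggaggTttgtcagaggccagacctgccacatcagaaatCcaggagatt
Stfa3: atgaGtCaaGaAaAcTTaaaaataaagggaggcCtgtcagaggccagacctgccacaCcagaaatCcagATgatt

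*Stfa1* starts with a shorter leader and was closest to *Cstdc5*, a neighbour in the array, so it is set beside that gene, and capitals mark its differences from it.
Cstdc5: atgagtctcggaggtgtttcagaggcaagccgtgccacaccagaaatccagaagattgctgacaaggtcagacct
Stfa1: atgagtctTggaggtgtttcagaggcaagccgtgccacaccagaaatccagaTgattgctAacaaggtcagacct

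Over the whole reading frame *Stfa2* and *Stfa2l1* were identical at 96.5% of aligned positions, *Stfa3* was 81.7% identical to *Stfa2l1* and 81.1% to *Stfa2*, and *Stfa1* was 98.0% identical to *Cstdc5* but 73.4% to *Stfa2l1*. Of all stretches of 75 bases in the transcripts, *Stfa2l1* shared 6.67% and *Stfa2* 5.79% with each other, *Stfa1* shared 9.15% with *Cstdc5*, and *Stfa3* shared 0% with any gene of the array. Reads from those shared stretches cannot be placed on a single gene. The levels of *Stfa1*, *Stfa2* and *Stfa2l1* are uncertain for that reason. By how much was not measured, and it also depends on the level of the gene that shares the stretch.

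The start regions of the 4 genes were alike as well. RefSeq promoters on GRCm38.p6 (250 bases before the start) were on hand for 4 of 4, and each held the letters TTTAAA, which read the same on both strands, within the last 40 bases before the start, as did 1.91% of 32851 promoters of the same kind. In the array *Cstdc4*, *Cstdc5* and a promoter of *Cstdc3* held them there too, and *Csta1*, *Csta2* and *Csta3* did not. The letters are shown in capitals in windows of 30 bases.
Stfa1 (chr16:36277106-36277135, plus strand): ctttcggataccTTTAAAaccctgagtctc
Stfa2 (chr16:36408375-36408404, minus strand): cttacagaaaccTTTAAAaccctgagtctc
Stfa2l1 (chr16:36156766-36156795, plus strand): tttacagaaaccTTTAAAaccctgagtctc
Stfa3 (chr16:36455406-36455435, minus strand): ttacagataaccTTTAAAaccccgagtctc

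The windows of *Stfa1* and *Stfa2* lie inside the longer GENCODE gene models, which start further upstream than RefSeq. GAGGAGG, searched on both strands over the 250 bases, was also found in 4 of 4, at 50 to 54 bases before the start, against 13.6% of all promoters. In the array *Cstdc4*, *Cstdc5* and a promoter of *Cstdc3* held it too, and *Csta1*, *Csta2* and *Csta3* did not. How GAGGAGG was picked is not recorded. If it was picked from these promoters its count was fixed in advance, so nothing is read from it. GAGGAA, the core letters bound by the myeloid factor PU.1, was found in 4 of 4, against 23.3% of all promoters. *Csta1*, *Cstdc4*, *Cstdc5* and a promoter of *Cstdc3* held it too, and *Csta2* and *Csta3* did not. TTGCNNAA, the letters of C/EBP factors, was found in *Stfa1* alone of the 4, against 9.56%. *Csta3*, *Cstdc5* and a promoter of *Cstdc3* held it too, and *Csta1*, *Csta2* and *Cstdc4* did not. The windows of the 4 promoters are much alike, so these matches cannot be taken as independent, and they are matches of letters only. Identity over the 250 bases was not computed.

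The depth of the libraries, read from the smallest steps in the values of 295 genes with low levels, was 0.928 to 1.05 of the median library. The libraries fell into 2 sets that cut across the groups: 5 libraries (control IgG replicates 4 and 7, IL-10-Fc 7, aCSF1R 8, BF10 6) had FPKM sums of 782919 to 921581 with 5.9 to 9.26% mitochondrial transcripts, and 7 had sums of 609695 to 648413 with 3.14 to 3.96%. FPKM was therefore rescaled to the same sum of 1000000 in every library, and these values, shares of a fixed total that are corrected for transcript length, are called TPM below. RNA of a whole tumor was measured, so fewer cells of a type and less RNA per cell cannot be told apart.

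*Stfa2*, *Stfa2l1* and *Stfa3* were expressed in all 12 tumors, with mean TPM of 54.7, 65.5 and 63.7, which placed them at percentiles 82.7, 85.4 and 85.1 of the 15504 genes tested. *Stfa1* was hardly expressed. Its TPM was 0.112, 0 and 0 in control IgG replicates 4, 5 and 7, and 0, 0.401 and 0.115 in IL-10-Fc replicates 2, 4 and 7. It was 0, 0.164 and 0.749 in aCSF1R replicates 4, 6 and 8, and 3.21, 0.543 and 0.155 in BF10 replicates 3, 6 and 7. It was above 0 in 8 of 12 libraries and failed the filter (TPM of at least 1 in at least 3 libraries), so 3 of 4 members entered the fit. *Cstdc5*, which shares stretches with *Stfa1*, measured 1260 TPM in BF10 replicate 3 and 253 in aCSF1R replicate 8. Whether its reads entered the *Stfa1* values was not tested.

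*Stfa2*, the closest copy of *Stfa2l1*, measured 24.1, 9.89 and 22.5 TPM in control IgG replicates 4, 5 and 7 and 18.5, 28.2 and 19.7 in IL-10-Fc replicates 2, 4 and 7. It measured 16.3, 7.59 and 76.2 in aCSF1R replicates 4, 6 and 8 and 398, 28.4 and 7.19 in BF10 replicates 3, 6 and 7. BF10 replicate 3 was thus the highest and BF10 replicate 7 the lowest of all 12 tumors, 55.4-fold apart within a single group.

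*Stfa2l1* followed the same order at the top. Its TPM was 40.7, 16.8 and 23.0 in control IgG replicates 4, 5 and 7, and 26.3, 44.8 and 29.3 in IL-10-Fc replicates 2, 4 and 7. It was 26, 15.6 and 96.6 in aCSF1R replicates 4, 6 and 8, and 414, 37.5 and 14.9 in BF10 replicates 3, 6 and 7. Here too the highest and the lowest tumor both came from BF10.

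*Stfa3*, the most divergent of the expressed members, measured 23.5, 8.78 and 24.1 TPM in control IgG and 17.1, 22.7 and 17.6 in IL-10-Fc, in the same replicate order. It measured 15.4, 7.54 and 102 in aCSF1R and 477, 25.6 and 23.7 in BF10. BF10 replicate 7 was not low for *Stfa3*, in contrast to the other members, and the lowest tumor was aCSF1R replicate 6.

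**Figure D1:**
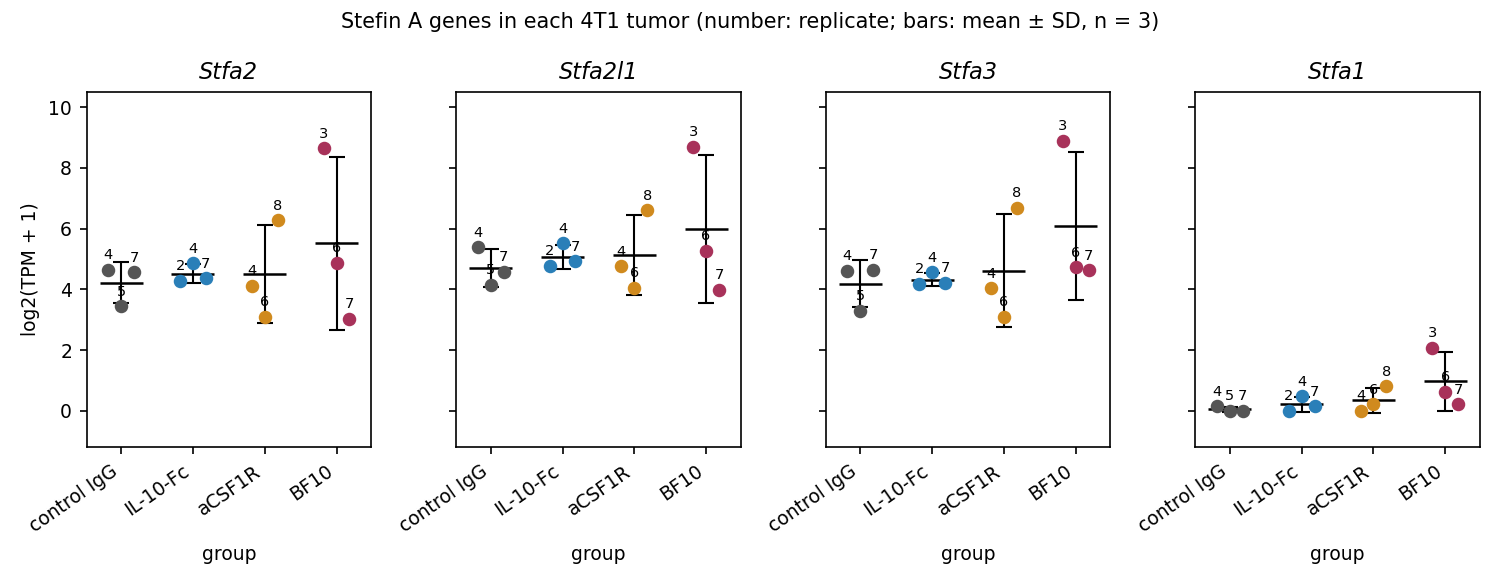
Level of each stefin A gene on the log2(TPM + 1) scale (vertical axis) in each tumor of the 4 groups (horizontal axis). Points are tumors labelled by replicate number, and lines with bars give the group mean ± SD (n = 3). BF10 replicate 3 and aCSF1R replicate 8 stand above the other 10 tumors for all 4 genes. The level of Stfa1 is uncertain, as it shares stretches with the far more abundant Cstdc5.

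Group means were ordered the same way for the 3 expressed members, BF10 above aCSF1R above IL-10-Fc above control IgG, but the SD exceeded the mean in BF10 for all 3 and in aCSF1R for *Stfa2* and *Stfa3*. For *Stfa2* they were 145 ± 220 (SD, n = 3), 33.4 ± 37.3, 22.1 ± 5.26 and 18.8 ± 7.78 TPM in that order. For *Stfa2l1* they were 155 ± 224, 46.1 ± 44.1, 33.5 ± 9.90 and 26.8 ± 12.4 TPM. For *Stfa3* they were 175 ± 261, 41.6 ± 52.3, 19.1 ± 3.11 and 18.8 ± 8.68 TPM. Neighbours in this order did not differ beyond their spread, and the order was not that of the medians: for *Stfa2* the median was 28.4 in BF10, 22.5 in control IgG, 19.7 in IL-10-Fc and 16.3 in aCSF1R.

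The summed level of the 4 genes was 88.3, 35.5 and 69.6 TPM in control IgG replicates 4, 5 and 7 and 62.0, 96.1 and 66.7 in IL-10-Fc replicates 2, 4 and 7. It was 57.8, 30.9 and 275 in aCSF1R replicates 4, 6 and 8 and 1292, 92.0 and 45.9 in BF10 replicates 3, 6 and 7. BF10 replicate 3 was 4.69-fold above aCSF1R replicate 8 and 19.4-fold above the median of the other 11 tumors. The sum made up 0.129% of that library and 0.00309% of aCSF1R replicate 6. Without those 2 tumors the group means were 64.5 TPM in control IgG, 74.9 in IL-10-Fc, 44.3 in aCSF1R (n = 2) and 69.0 in BF10 (n = 2), and the 10 tumors lay between 30.9 and 96.1 TPM. The 2 remaining aCSF1R tumors (57.8 and 30.9 TPM) then both lay below the lowest IL-10-Fc tumor (62.0 TPM), and the other pairs of groups overlapped. The highest aCSF1R tumor was left out after its value was seen. No share of all tested genes without overlap was computed for this removal, so nothing is read from it.

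The mix of the genes was steadier than their level. *Stfa2l1* gave 32.0 to 50.5% of the sum with a median of 43.2%, *Stfa2* 15.7 to 32.3% with a median of 28.8%, *Stfa3* 23.6 to 51.6% with a median of 27.2%, and *Stfa1* at most 0.59%. *Stfa3* took its largest shares in BF10 replicate 7 (51.6%), aCSF1R replicate 8 (37.0%) and BF10 replicate 3 (36.9%), and *Stfa2* its smallest in BF10 replicate 7 (15.7%). The most different mix, in BF10 replicate 7, thus did not come with a high level of the family. The 2 tumors with a high level, aCSF1R replicate 8 and BF10 replicate 3, also had *Stfa3* shares above the median. BF10 replicate 3 had the smallest *Stfa2l1* share (32.0%).

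On the log2(TPM + 1) scale, which understates the change of low genes, the SD over the 12 libraries was 1.53 for *Stfa2*, 1.32 for *Stfa2l1* and 1.57 for *Stfa3*, against a median of 0.528 over all tested genes, at percentiles 99.1, 98.1 and 99.3. Over the 10 libraries without BF10 replicate 3 and aCSF1R replicate 8 it was 0.696, 0.550 and 0.582, against a median of 0.478, at percentiles 74.9, 59.3 and 63.2. Most of the spread of the family thus lay in those 2 tumors, which were chosen after their values were seen.

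Group differences were read from a linear model on log2(TPM + 1) across all 15504 genes (limma), which called a gene changed at an adjusted p below 0.05 and a change of at least 1.5-fold. BF10 minus control IgG was 1.3 with a standard error (SE) of 1.2 for *Stfa2*, 1.3 (SE 1.02) for *Stfa2l1* and 1.90 (SE 1.13) for *Stfa3*. IL-10-Fc minus control IgG was 0.29, 0.36 and 0.14, and aCSF1R minus control IgG was 0.28, 0.43 and 0.42, with the same SE for each gene. The last 2 sets of differences were smaller than their SE.

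The comparison of BF10 with its parts gave the same picture. BF10 minus IL-10-Fc was 1.01 for *Stfa2*, 0.91 for *Stfa2l1* and 1.76 for *Stfa3*, and BF10 minus aCSF1R was 1.02, 0.84 and 1.48. IL-10-Fc minus aCSF1R was 0.013, −0.070 and −0.28. The mean of BF10 and IL-10-Fc, the groups that carry interleukin-10, minus the mean of control IgG and aCSF1R was 0.66 (SE 0.85), 0.60 (SE 0.72) and 0.81 (SE 0.80). The non-additive difference, the step from aCSF1R to BF10 less the step from control IgG to IL-10-Fc, was 0.73 (SE 1.70), 0.48 (SE 1.45) and 1.34 (SE 1.6).

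None of the 3 members was called in any of these comparisons, that is 0 of 3 each time. Beside that count, the share of all tested genes called was 0% for BF10 against control IgG (0 genes by limma, with 234 at an unadjusted p below 0.05), 0.568% for aCSF1R against control IgG and 0.00645% for IL-10-Fc against control IgG. It was 0% for BF10 against IL-10-Fc (0 genes by limma, 42 at an unadjusted p below 0.05), 0.735% for BF10 against aCSF1R and 0.542% for IL-10-Fc against aCSF1R. It was 0.142% for the groups with interleukin-10 and 0.29% for the non-additive difference. Against control IgG, the median difference of all tested genes was 0.32 in BF10, 0.24 in aCSF1R and 0.35 in IL-10-Fc, so the members' differences in aCSF1R and IL-10-Fc lay near that of a typical gene. The comparisons share control tumors.

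In 1 of the 6 pairs of groups a member did not overlap: *Stfa3* in BF10 against IL-10-Fc, where the lowest BF10 tumor (23.7 TPM) stood just above the highest IL-10-Fc tumor (22.7 TPM), and 2.13% of all tested genes did not overlap there. In the other 5 pairs all 3 members overlapped. The share of all tested genes without overlap was 3.53% for BF10 against control IgG, 5.91% for BF10 against aCSF1R, 6.53% for IL-10-Fc against control IgG, 5.28% for aCSF1R against control IgG and 7.49% for IL-10-Fc against aCSF1R.

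The summed level rested on single tumors. BF10 minus control IgG was 1.54 on the log2 scale with all libraries, 0.11 without BF10 replicate 3 and 2.5 without BF10 replicate 7. BF10 minus IL-10-Fc moved from 1.26 to −0.17 and BF10 minus aCSF1R from 1.15 to −0.28 without BF10 replicate 3. The difference of aCSF1R minus control IgG moved from 0.39 to −0.50 without aCSF1R replicate 8. The SD of the control IgG tumors on this scale was 0.669.

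**Figure D2:**
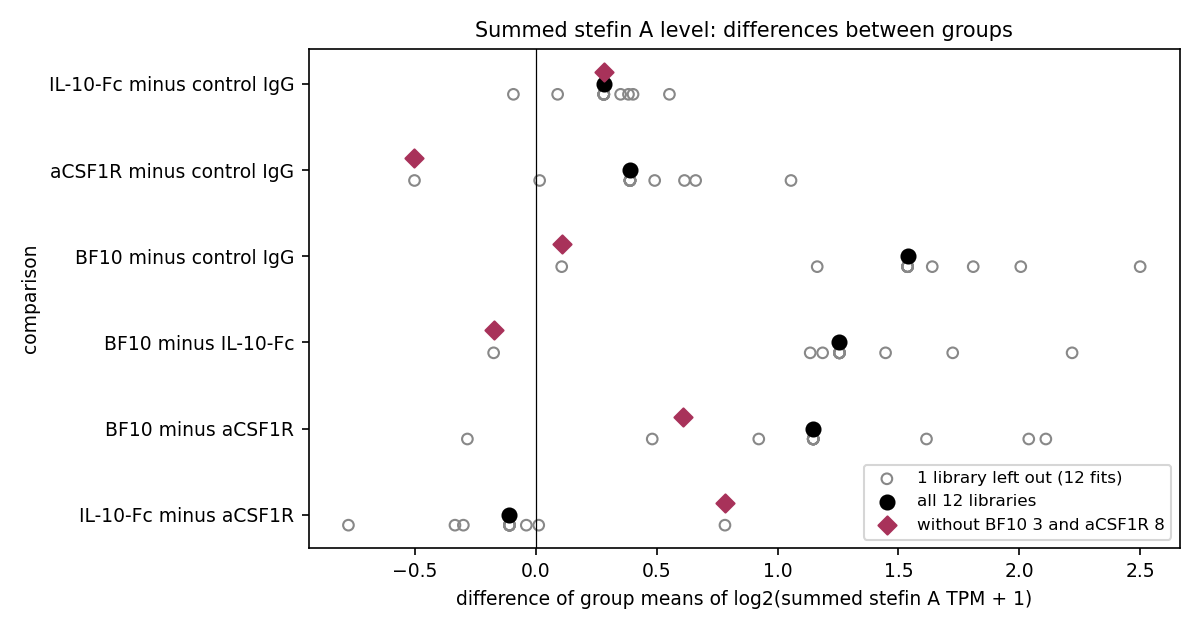
Differences between group means of log2(summed stefin A TPM + 1) (horizontal axis) for the 6 pairs of groups (vertical axis). Black points use all 12 libraries, open circles leave out 1 library each, and diamonds leave out BF10 replicate 3 and aCSF1R replicate 8; in the 3 comparisons of BF10, leaving out BF10 replicate 3 moves the value to between −0.28 and 0.11.

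Within the library sets the values pointed in different ways, and each group had at most 2 tumors in a set, so these have no test. In the 7 lower-sum libraries the summed difference of BF10 minus control IgG was 2.75 and of BF10 minus aCSF1R 2.51. In the 5 higher-sum libraries they were 0.23 and −1.57. BF10 replicate 3 lies in the first set and aCSF1R replicate 8 in the other.

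The other genes of the array were read next, from the highest level down. *Cstdc5*, a stefin A-like gene whose start is shown above, reached 1260 TPM in BF10 replicate 3 and 253 in aCSF1R replicate 8, and 14.4 to 91.0 in the other 10 tumors. *Cstdc4* reached 588 and 180 in those tumors against 15 to 60.1, and *Cstdc6* 41.5 and 11 against 0.248 to 3.06. All 3 had the same 2 tumors on top, as the members did, and *Cstdc5* was at a higher mean level (166 TPM) than any member.

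*Csta3* was low, at 5.79 TPM in BF10 replicate 3, 3.70 in aCSF1R replicate 8 and at most 2.59 elsewhere. *Csta1* went another way: it was 0.282 TPM in BF10 replicate 3, 4.47 in aCSF1R replicate 8, and 0.262 to 3.99 in the other tumors. *Csta2* was above 0 in 2 of 12 libraries at no more than 0.0925 TPM, the pseudogene *Cstdc3* was listed at 0 in all, and so was *Cstdc7*, which lies outside the array. Of these 8 other genes 5 passed the filter and 0 were called in any of the 8 comparisons.

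**Figure D3:**
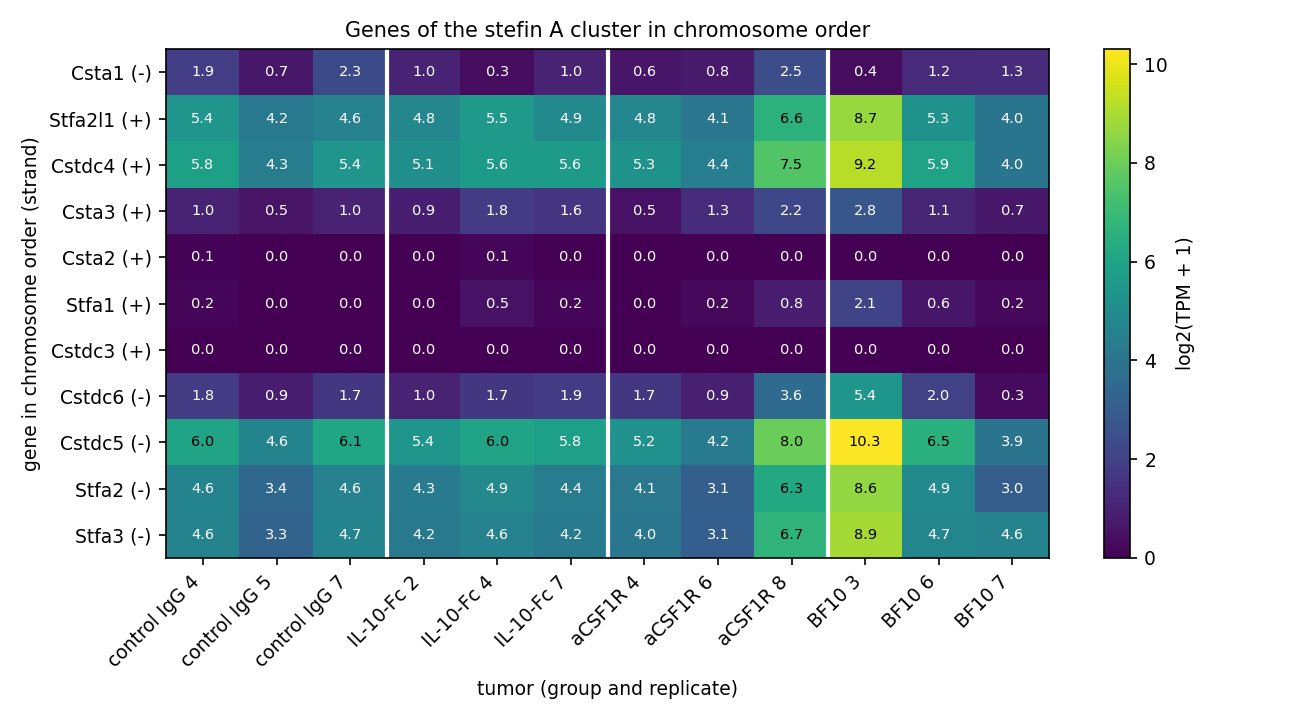
Log2(TPM + 1) (color and printed value) of the 11 genes of the stefin A array in chromosome order (vertical axis, strand in brackets) in the 12 tumors (horizontal axis, group and replicate). Cstdc4, Cstdc5, Stfa2, Stfa2l1 and Stfa3 are expressed in all tumors and brightest in BF10 replicate 3, and Csta2, Stfa1 and Cstdc3, side by side in the middle, are near 0.

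Expression across the array was therefore patchy, with the expressed genes toward both ends. Pearson's r of log2(TPM + 1) over the 12 libraries, after the mean of each library set was removed, was 0.990 for *Stfa2* with *Stfa2l1*, 0.999 for *Stfa2* with *Cstdc5*, and 0.947 for *Stfa3* with *Stfa2* and with *Stfa2l1*. These points share libraries, and the 2 highest tumors weigh on every r. Over the 10 libraries without them r stayed at 0.919 for *Stfa2* with *Stfa2l1* and 0.989 for *Stfa2* with *Cstdc5*, genes that share no stretch of 75 bases, and was 0.495 and 0.472 for *Stfa3* with *Stfa2* and *Stfa2l1*. *Stfa3* was in this sense the odd member, but 1 tumor weighed on these values. In BF10 replicate 7 *Stfa2* measured 7.19 TPM and *Stfa3* 23.7. In the rest of those 10 libraries the widest gap between these genes was 28.2 against 22.7 TPM, in IL-10-Fc replicate 4.

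Among all tested genes outside the family, the 10 with the highest r to the summed level (same measure) were *Cstdc5* (0.985), *Cstdc4* (0.984), *S100a9* (0.977), *Cstdc6* (0.972), *S100a8* (0.971), *Ms4a3* (0.963), *Ceacam10* (0.955), *Asprv1* (0.955), *Il1f9* (0.953) and *Camp* (0.952). *S100a8* and *S100a9* encode the calcium-binding pair that fills the neutrophil cytosol, and *Camp* encodes the cathelicidin of neutrophil granules. The median r of all tested genes was −0.22, and 36 genes reached 0.9. Without the 2 highest tumors r was 0.915 for *S100a9*, 0.883 for *S100a8*, 0.852 for *Cstdc5*, 0.839 for *Cstdc4* and 0.625 to 0.788 for the other 6.

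*S100a9* measured 1061, 459 and 810 TPM in control IgG, 525, 1226 and 908 in IL-10-Fc, 575, 248 and 1906 in aCSF1R and 9368, 969 and 435 in BF10, in the replicate order used above. It thus shared its 2 highest tumors with the stefin A genes. The 20 neutrophil markers summed to 17586 TPM in BF10 replicate 3, to 3751 in aCSF1R replicate 8 and to 1161 to 2696 in the other 10 tumors, but *S100a8* and *S100a9* made up most of these sums (15890 and 3268 TPM in the 2 high tumors). The other 18 markers summed to 1697 TPM in BF10 replicate 3 and to 483 in aCSF1R replicate 8, inside the 371 to 769 TPM of the other 10 tumors. This sum in turn depended heavily on *Padi4* and *Slpi*, the markers with the lowest r to stefin A (−0.765 and −0.371). Outside BF10 replicate 3 they measured 42.8 to 349 and 79.2 to 251 TPM, and in aCSF1R replicate 8 they measured 43.6 and 179.

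The 2 high tumors, which lie in different library sets, were therefore unlike in their neutrophil markers when set against the other 10 tumors. The median fold of the 20 over the median of the other 10 tumors was 6.14 in BF10 replicate 3 and 1.07 in aCSF1R replicate 8, where 10 of the 20 lay below that median, among them the receptor genes *Csf3r* (0.264-fold) and *Cxcr2* (0.309-fold), named after their values were seen. That median mixes both library sets. In the other higher-sum libraries *Csf3r* measured 2.56 to 6.91 TPM and *Cxcr2* 0.366 to 0.920. In aCSF1R replicate 8 they measured 3.84 and 0.879 TPM, so these genes were not low within its set. BF10 replicate 3 was the highest tumor for 16 of the 20, against 19.8% of all tested genes. It was also the highest for 8 of 10 other lysosomal peptidases, 6 of 9 monocyte markers, 6 of 12 macrophage markers, 4 of 10 papain-type cathepsins, 4 of 10 T cell markers and 0 of 9 tumor epithelial markers. None of the 20 neutrophil markers was at 0.

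By group the neutrophil sum ranged from 1362 to 2144 TPM in control IgG, 1543 to 2696 in IL-10-Fc, 1161 to 3751 in aCSF1R and 1333 to 17586 in BF10, and 0 of 20 genes were called in any comparison. In the 2 genes with the lowest likeness the pattern differed: *Padi4* measured 143 TPM and *Slpi* 107 in BF10 replicate 3, below the median of the 10 other tumors (201 and 145). The summed stefin A level was 7.34% of the neutrophil sum in BF10 replicate 3 and 7.34% in aCSF1R replicate 8, against 2.61 to 4.38% elsewhere. Set against *S100a8* and *S100a9* alone it was 8.13% and 8.42%, against 4.39 to 7.91%.

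**Figure D4:**
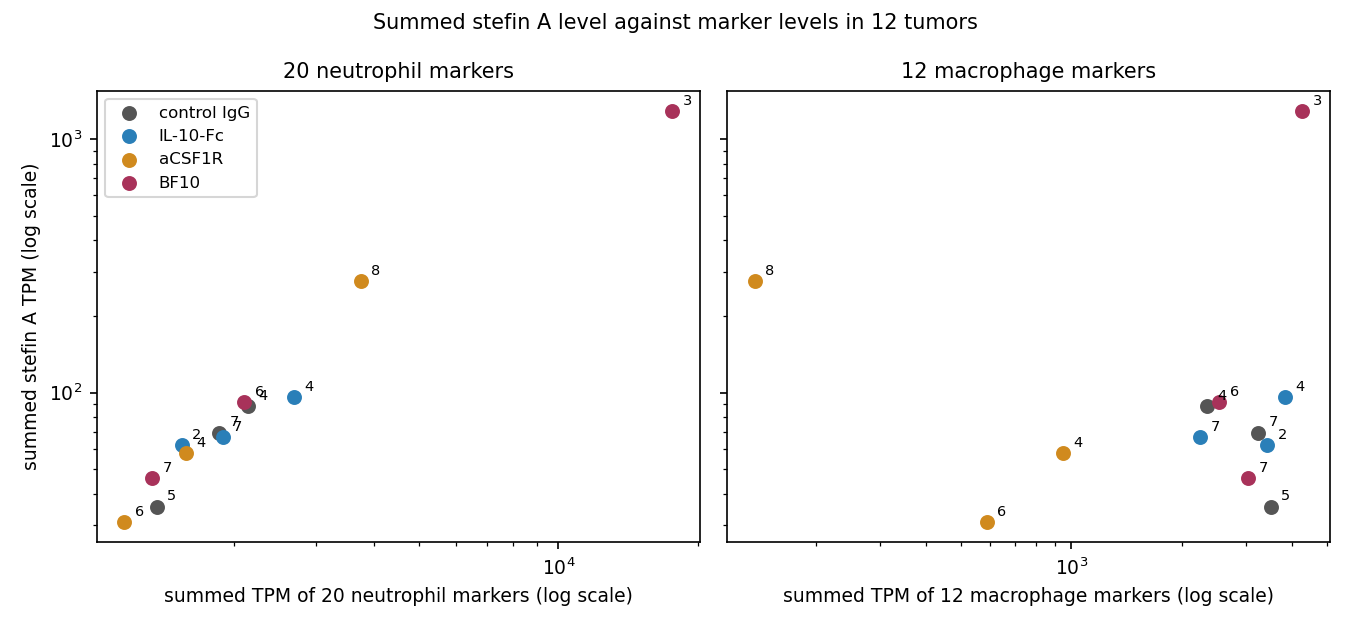
Summed stefin A TPM (vertical axis, log scale) against the summed TPM of 20 neutrophil markers (left, log scale) and of 12 macrophage markers (right, log scale) in 12 tumors, colored by group and labelled by replicate. The 2 tumors with the most stefin A are also the 2 with the highest neutrophil sum, which in aCSF1R replicate 8 is carried by S100a8 and S100a9 (3268 of 3751 TPM), while for macrophage markers they are the highest (4275 TPM, BF10 replicate 3) and the lowest (136 TPM, aCSF1R replicate 8).

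BF10 replicate 3 was the highest tumor for 11 of 12 genes of neutrophil granule proteins, with a median of 22.0-fold over the median of the other 10 tumors, and aCSF1R replicate 8 had a median of 1.49-fold. In aCSF1R replicate 8 the 12 genes went different ways. It was the second highest tumor for *Camp* (4.13-fold, against 92.0-fold in BF10 replicate 3), *Lcn2* (2.76-fold, against 2.94-fold) and *Ctsg* (2.72-fold, against 22.5-fold), and the lowest for *Mmp9* (0.0509-fold) and *Lyz2* (0.102-fold). *Lcn2* encodes an iron-binding granule protein and *Ctsg* the serine protease cathepsin G. For the 3 expressed stefin A members the median fold was 20.8 in BF10 replicate 3 and 3.99 in aCSF1R replicate 8.

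Other cell types were read from their markers. Epidermal keratinocyte markers, the other known source of stefins, summed to 19.7 to 42.5 TPM in control IgG, 43.0 to 106 in IL-10-Fc, 17.7 to 60.5 in aCSF1R and 31.0 to 96.2 in BF10. Of the 19 genes listed 6 passed the filter, 0 were called, *Sprr1b* was listed at 0 in all libraries, and BF10 replicate 3 was the highest tumor for 4 of the 6. Eosinophil, basophil and mast cell markers summed to 235 TPM in aCSF1R replicate 8 and to 18.1 to 92.6 elsewhere, with 8 of 11 tested and 0 called. The list was not high as a whole there. *Mcpt4*, *Cpa3*, *Tpsb2*, *Cma1* and *Fcer1a* were at their highest of the 12 tumors and *Prg2* ranked 2, while *Mcpt8* ranked 9 and *Ccr3* ranked 12. T cell markers (10 tested) and tumor epithelial markers (9 of 10 tested) had 0 calls, and aCSF1R replicate 8 was the lowest tumor for both sums, at 28.2 and 841 TPM. The epithelial sum ran with the library set. It was 841 to 1830 TPM in the higher-sum libraries, to which aCSF1R replicate 8 belongs, and 2060 to 2885 in the lower-sum libraries. The part that cell content had in the stefin A levels was not tested.

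Macrophage markers were lower in the aCSF1R tumors than in the control IgG tumors. The 12 markers summed to 2351 to 3509 TPM in control IgG and 136 to 946 in aCSF1R, and 6 of 12 fell in aCSF1R against control IgG, among them *C1qc* (−4.05, SE 0.31, adjusted p = 0.000212 by limma) and *Msr1* (−3.75, SE 0.22, adjusted p = 6.4e-05 by limma). Against aCSF1R 7 of 12 were higher in BF10 and 7 of 12 in IL-10-Fc. These counts include calls that rested on single libraries. *Adgre1* lost its call against control IgG in 10 of 12 fits with 1 library left out, all but those without aCSF1R replicate 4 or BF10 replicate 3 (adjusted p up to 0.208 by limma), in IL-10-Fc in 7 of 12 (up to 0.182) and in BF10 in 2 of 12 (up to 0.0559). *Ms4a7* lost its call in IL-10-Fc in 6 of 12 (adjusted p up to 0.185 by limma) and in BF10 in 2 of 12 (up to 0.0743), and *C1qb* in IL-10-Fc in 2 of 12 (up to 0.0686). The monocyte gene *Ccr2* was called in the same comparisons (1 of 9), as was *Lyz2* (1 of 12 of the granule list), which macrophages also express, and for *Ccr2* the call in IL-10-Fc against aCSF1R was lost in 3 of 12 such fits (adjusted p up to 0.0713 by limma). The median r to the summed stefin A level was 0.03 over the macrophage markers, 0.86 over the neutrophil markers and 0.91 over the granule list. The 2 tumors highest in stefin A weigh on these medians. Over the 10 libraries without them, r was 0.287 to 0.667 for the macrophage markers and −0.756 to 0.915 for the neutrophil markers. For the granule list it was −0.322 to 0.752, so the lists overlapped.

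Papain-type cathepsins are the enzymes that stefins bind, and all 10 in the list were expressed. *Ctss*, the cathepsin of antigen presenting cells, measured 870, 514 and 884 TPM in control IgG, 473, 602 and 593 in IL-10-Fc, 117, 97.8 and 108 in aCSF1R and 719, 675 and 534 in BF10. *Ctsc*, which activates the serine proteases of neutrophil and T cell granules, measured 227, 264 and 195 in control IgG, 331, 327 and 238 in IL-10-Fc, 77.0, 44.5 and 20.9 in aCSF1R and 397, 286 and 413 in BF10. For both genes the aCSF1R tumors were lower than every other tumor.

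These 2 were the members of the list that passed the test. In aCSF1R against control IgG *Ctss* fell by 2.76 (SE 0.24, adjusted p = 0.000459 by limma) and *Ctsc* by 2.42 (SE 0.39, adjusted p = 0.0176 by limma). BF10 minus aCSF1R was 2.56 for *Ctss* (SE 0.24, adjusted p = 0.000767 by limma) and 3.08 for *Ctsc* (SE 0.39, adjusted p = 0.00446 by limma). IL-10-Fc minus aCSF1R was 2.35 (adjusted p = 0.00175 by limma) and 2.80 (adjusted p = 0.0101 by limma). For the groups with interleukin-10 against those without the differences were 1.07 (adjusted p = 0.047 by limma) and 1.73 (adjusted p = 0.0481 by limma). The *Ctss* calls between pairs of groups held with any 1 library left out, but its call for interleukin-10 was lost in 12 of 12 such fits (adjusted p = 0.0687 to 0.214 by limma). For *Ctsc* the call against aCSF1R held throughout in BF10, was lost for IL-10-Fc without IL-10-Fc replicate 2 or 4 or aCSF1R replicate 6 (adjusted p up to 0.0713 by limma), was lost for aCSF1R against control IgG without any control tumor or aCSF1R replicate 6 (up to 0.0849), and was lost for interleukin-10 in 10 of 12 fits, all but those without aCSF1R replicate 4 or 8 (up to 0.21). The other 8, including *Ctsl*, *Ctsb* and *Ctsh*, whose aCSF1R tumors overlapped with no other group, were not called in any comparison, nor were the 10 other lysosomal peptidases.

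**Figure D5:**
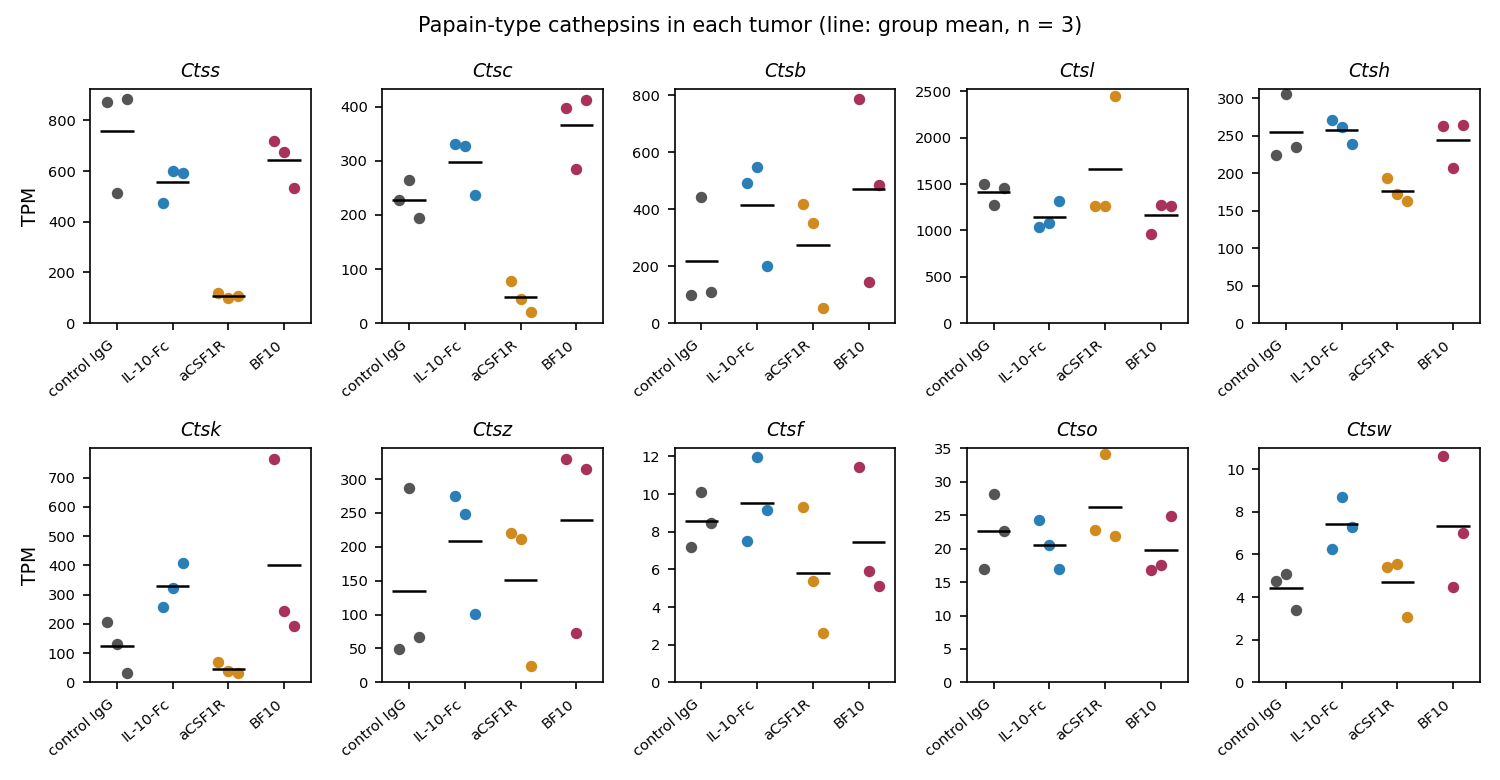
TPM (vertical axes, each from 0) of the 10 papain-type cathepsins in the 3 tumors of each group (horizontal axis); points are tumors and lines are group means. Ctss and Ctsc are lower in all 3 aCSF1R tumors than in the other 9, and Ctsh does not overlap between aCSF1R and any other group either, while the other 7 genes overlap with at least 1.

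*Ctsl* was the most abundant cathepsin, with 2450 TPM in aCSF1R replicate 8 and 963 in BF10 replicate 3, its highest and lowest tumors. The summed stefin A level was 30.3% of the summed papain-type cathepsin level in BF10 replicate 3, 9.57% in aCSF1R replicate 8 and 1.09 to 3.14% in the other 10 tumors. The cathepsin sum itself ranged from 2229 to 4259 TPM, so this ratio followed the stefin level.

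Inhibitors outside the array were read in the same way. *Cstb*, the single stefin B gene, measured 249 to 602 TPM and *Cst3*, the secreted cystatin C, 540 to 963 TPM, and in BF10 replicate 3 they stood at 309 and 772, close to the median of the 10 other tumors (318 and 784). *Cst6* and *Cst7*, a leukocyte cystatin that acts inside lysosomes, were at 8.23 and 9.45 TPM in BF10 replicate 3, their highest tumor, against 0.830 to 7.74 and 2.10 to 5.60. Of 14 other cystatins listed 5 passed the filter and 0 were called. Stefin B and cystatin C were present at higher levels than the sum of the 4 stefin A members in 11 of 12 tumors, the exception being BF10 replicate 3. That sum leaves out the other genes of the array. In aCSF1R replicate 8 those alone summed to 453 TPM, where *Cstb* measured 438 and *Cst3* 607.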

How the data were processed

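Bulk RNA of 12 orthotopic 4T1 tumors was measured, 3 for each of 4 groups taken from the labels; nothing says whether tumors shared a batch. By the account in the study's methods, TRIzol was used for extraction, libraries were stranded mRNA libraries run on a NextSeq, and the reference was mm10 with annotation GRCm38.101; the submitters' processing notes list STAR 2.7.5a, RSEM 1.3.3 and DESeq2 1.28.0 without a role. The authors deposited FPKM (fragments scaled to transcript length and library depth) with 2 decimals for 55401 genes. All columns were matched by name (0 unmatched). The 4 tables of the authors' comparisons, which hold log2 fold changes, p-values and means of normalized counts, were not used.

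FPKM was rescaled to TPM, genes with TPM of at least 1 in at least 3 libraries were kept (15504), and log2(TPM + 1) was fitted with limma 3.58.1 in R 4.3.3 (1 mean per group, trend, 8 residual degrees of freedom, Benjamini-Hochberg adjustment, call at 0.05 and 1.5-fold). All adjusted p-values come from limma. The fit was tested on simulated data without library sets. No gene there was given more than the median spread, so the test does not cover genes as variable as the stefin A members. The members and lists were chosen with earlier results of these data known. Named list genes were those called in a comparison (at most 4), else the 4 of highest mean. With 3 tumors a group, p-values measure the spread between these tumors. Sequences came from GENCODE M21 transcripts (Ensembl 96) and RefSeq promoters (GRCm38.p6), aligned with Biopython 1.88; the study's annotation is a later release of the same build. Tools also included Python 3.11.15, pandas 2.3.3 and matplotlib 3.10.9. Alternatives were a pseudocount of 0.1, FPKM as deposited, median-of-ratios scaling, other filters, 2 groups only, no trend, the library set as a term or split at an FPKM sum of 700000, a replicate block, leaving out each library, and the p threshold alone.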

Additional observations from a re-analysis of the deposited data

Results flagged for a closer look

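The non-additive difference is the step from aCSF1R to BF10 less the step from control IgG to IL-10-Fc. No tumor received the antibody and IL-10-Fc as separate proteins. An effect of interleukin-10 therefore cannot be told apart from other differences between BF10 and the antibody. Against control IgG 6 of 12 macrophage markers were called lower in aCSF1R and 0 were called in BF10. For 7 list genes the non-additive difference was itself past the threshold (limma, adjusted p over all tested genes). On the log2 scale it was 4.2 for *C1qc* (SE 0.44, adjusted p = 0.00416), 4.08 for *C1qa* (adjusted p = 0.012) and 3.96 for *Msr1* (adjusted p = 0.00129), which are macrophage markers, as is *Mrc1* at 2.91 (adjusted p = 0.0231). It was 2.97 for the cathepsin *Ctss* (SE 0.34, adjusted p = 0.0059), 3.69 for *Lyz2* (adjusted p = 0.0118) and 3.00 for *Ccr2* (SE 0.38, adjusted p = 0.0118), all by limma with 3 tumors a group. With 1 library left out in turn, the call was lost in 9 of 12 fits for *Mrc1* (adjusted p up to 0.118), all but those without control IgG replicate 5 or aCSF1R replicate 4 or 8, in 6 of 12 for *C1qa* (up to 0.0608; control IgG 4 or 7, any IL-10-Fc tumor or BF10 7), in 3 of 12 for *Ccr2* (up to 0.0569; control IgG 4 or 7 or IL-10-Fc 4) and in 2 of 12 for *Lyz2* (up to 0.0522; control IgG 4 or IL-10-Fc 2), and held in 12 of 12 for *C1qc*, *Msr1* and *Ctss*. Median-of-ratios scaling ended the call for *C1qc*, *Ctss*, *Ccr2* and *Lyz2*. For the stefin A members the same difference was 0.73, 0.48 and 1.34 with SE of 1.45 to 1.70, and 0 of 3 were called.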

How the results depend on the processing

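In the alternative fits, as in the one reported, 0 of 3 stefin A members were called in each of the 8 comparisons, from which nothing is read. The summed stefin A difference, a value with no test, moved by more than the SD of the control IgG tumors (0.669) as follows. Within the lower-sum libraries it was 2.75 for BF10 and 1.10 for IL-10-Fc against control IgG, 2.51 for BF10 and 0.85 for IL-10-Fc against aCSF1R, and 1.80 for the groups with interleukin-10. Within the higher-sum libraries it was 0.23 for BF10 and 1.80 for aCSF1R against control IgG, 0.46 for BF10 against IL-10-Fc, −1.57 for BF10 and −2.03 for IL-10-Fc against aCSF1R, −0.90 for the groups with interleukin-10 and −1.34 for the non-additive difference. With the replicate block it was −0.11 for BF10 and −1.08 for aCSF1R against control IgG, 1.11 for IL-10-Fc against aCSF1R, and −0.14 in the comparison of BF10 with IL-10-Fc; same-numbered tumors did not deviate together (r of −0.663 to 0.417 over 7 pairs), so they share only a number, and the block left 0 or 1 gene called per comparison. Without BF10 replicate 3 and aCSF1R replicate 8 together, chosen after seeing the data, it was 0.11, −0.50, −0.17 and 0.78 for BF10 against control IgG, aCSF1R against control IgG, BF10 against IL-10-Fc and IL-10-Fc against aCSF1R.

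Leaving out 1 library gave summed differences of 0.11 to 2.5 for BF10, −0.092 to 0.55 for IL-10-Fc and −0.50 to 1.06 for aCSF1R against control IgG, −0.17 to 2.22 for BF10 against IL-10-Fc, −0.28 to 2.11 for BF10 and −0.77 to 0.78 for IL-10-Fc against aCSF1R, −0.0004 to 1.2 for the groups with interleukin-10 and −0.56 to 1.83 for the non-additive difference. Calls over all genes changed most with the library set as a term: 312 for aCSF1R against control IgG (88 in the fit reported), 437 for BF10 and 330 for IL-10-Fc against aCSF1R (114 and 84), 216 for the groups with interleukin-10 (22) and 188 for the non-additive difference (45). Median-of-ratios scaling gave 135 for aCSF1R against control IgG, no filter gave 9 for the groups with interleukin-10 and 27 for the non-additive difference, no trend gave 12 for the groups with interleukin-10, and fits of only the 2 groups compared gave 4 for aCSF1R against control IgG, 0 for BF10 and 12 for IL-10-Fc against aCSF1R. With 1 library left out the counts were 55 to 91 for aCSF1R against control IgG, 54 to 108 for BF10 and 24 to 92 for IL-10-Fc against aCSF1R, 2 to 18 for the groups with interleukin-10 and 10 to 52 for the non-additive difference; the other 3 comparisons had 0 to 4 calls throughout. The 43 calls of list genes all kept their direction; 43 held with the library set as a term, 30 with median-of-ratios scaling, 7 of 32 in fits of only the 2 groups, 31 to 42 with 1 library left out and 0 with the block. The cause of these changes was not tested. The 2 decimals of the deposited values limit what can be said of *Stfa1*.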
